A study of Oryza sativa Japonica Group with 9 samples.

Results

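PT11 (LOC4324187, also called OsPht1;11 or PHT1-11) is a rice gene of chromosome 1 that encodes a phosphate transporter of the PHT1 family. It is 1 of 17905 genes with a probe set of their own, and all probe sets that the array's annotation pairs with it were taken. These were 4 of the 57258 rice probe sets: Os.21638.1.S1_at, Os.21638.2.A1_at, Os.21638.2.S1_at and Os.21638.2.S1_x_at. No probe set was paired with PT11 and another gene together. Expression was measured on 9 arrays in root cortical cells cut out by laser from plants of the japonica cultivar Nipponbare, with about 2000 captured cells per sample. The groups of 3 arrays each were arbusculated cells, which contained arbuscules, the branched structures that the fungus forms inside root cells; systemic cells, which held no fungus but lay next to arbusculated cells in the same colonised roots; and mock cells from mock-inoculated roots. When planted, each plant of the colonised kind was given 250 spores of the mycorrhizal fungus Rhizophagus irregularis, and all plants were fed a diluted Hoagland solution set to 25 mM KH2PO4, per the labels, and harvested at 7 weeks. Which plants a sample came from is not given in the labels. P-values therefore reflect only how much these samples vary, which may be technical.

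PHT1 proteins carry phosphate into plant cells together with protons. Most family members of rice take phosphate from the soil through the outer root cells or move it within the plant, whereas PT11 sits in the plant membrane that surrounds the arbuscule and takes up phosphate released there by the fungus. Its transcript is widely used as a marker of cells with arbuscules, and rice plants that lack the protein take up little phosphate from the fungus and form stunted arbuscules. The comparison of the captured cells asks in which of them PT11 transcript was present and whether the probe sets of the gene gave the same answer.

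The probe sets differ in design. Os.21638.1.S1_at was built from a sequence record of its own, and the other 3 share another record. In the naming used for this array, S and A mark a sense or antisense orientation of the source sequence, and _x marks a set with probes that also match other transcripts. Labelling was primed from the poly(A) tail, per the labels' protocols. The pairing of the probe sets with PT11 rests on the array's annotation alone. Whether each of them reads the PT11 transcript, and where in it they lie, was not analysed here. The values were deposited on the log2 scale after RMA, which corrects background, makes the distributions of the arrays alike and combines the probes of a set, and they carry no detection call. A difference of 1 on this scale is a doubling.

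One probe set, Os.21638.1.S1_at, was high in arbusculated cells and low in the others. Its log2 values were 9.43, 8.91 and 8.30 on the arbusculated arrays, 3.55, 4.37 and 4.37 on the systemic arrays, and 4.20, 3.87 and 3.56 on the mock arrays. Each arbusculated array was above every other array by several log2 units, and the systemic and mock arrays overlapped. The systemic and mock values were not shown to lie above background, so the differences below are given on the deposited log2 scale and not as exact folds of transcript.

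The mean of Os.21638.1.S1_at was 8.88 ± 0.57 in arbusculated cells, 4.10 ± 0.48 in systemic cells and 3.88 ± 0.32 in mock cells (SD, n = 3 each). In a linear model of all probe sets fitted with limma, it rose in arbusculated over mock cells by 5.00 ± 0.36 (log2, SE; 95% interval 4.19 to 5.82; adjusted p = 0.00303). Over systemic cells it rose by 4.78 ± 0.36 (95% interval 3.97 to 5.60; adjusted p = 0.00381). These contrasts share the arbusculated arrays and are not independent of each other. Systemic minus mock was 0.22 ± 0.36 (95% interval -0.60 to 1.03; adjusted p = 0.973), so a difference of about 1 log2 unit between those cell populations lies within the interval. Samples are pools of cells, in which fewer cells with transcript and less transcript per cell cannot be told apart.

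Of the 4 PT11 probe sets, this one passed the test (adjusted p under 0.05) in arbusculated against mock cells, as did 0.187% of all rice probe sets, 0.178% of them as rises. Against systemic cells it was again 1 of 4, beside 0.246% of all probe sets and 0.232% as rises. None of the 4 fell over mock or systemic cells, as did 0.00873% and 0.014% of all probe sets. At an unadjusted p under 0.05, 2 of the 4 differed from mock cells, beside 14.2% of all probe sets, and 3 of the 4 from systemic cells, beside 23.9%. Over any difference among the 3 groups, in a moderated F test, the adjusted p was 0.00442 for Os.21638.1.S1_at, and 0.173% of all probe sets passed. Between systemic and mock cells 0 of 4 passed in limma, where 0 of all probe sets passed after adjustment and 4.34% had an unadjusted p under 0.05. None of the 4 PT11 probe sets had an unadjusted p under 0.05 there, the lowest being 0.436.

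**Figure D1:**
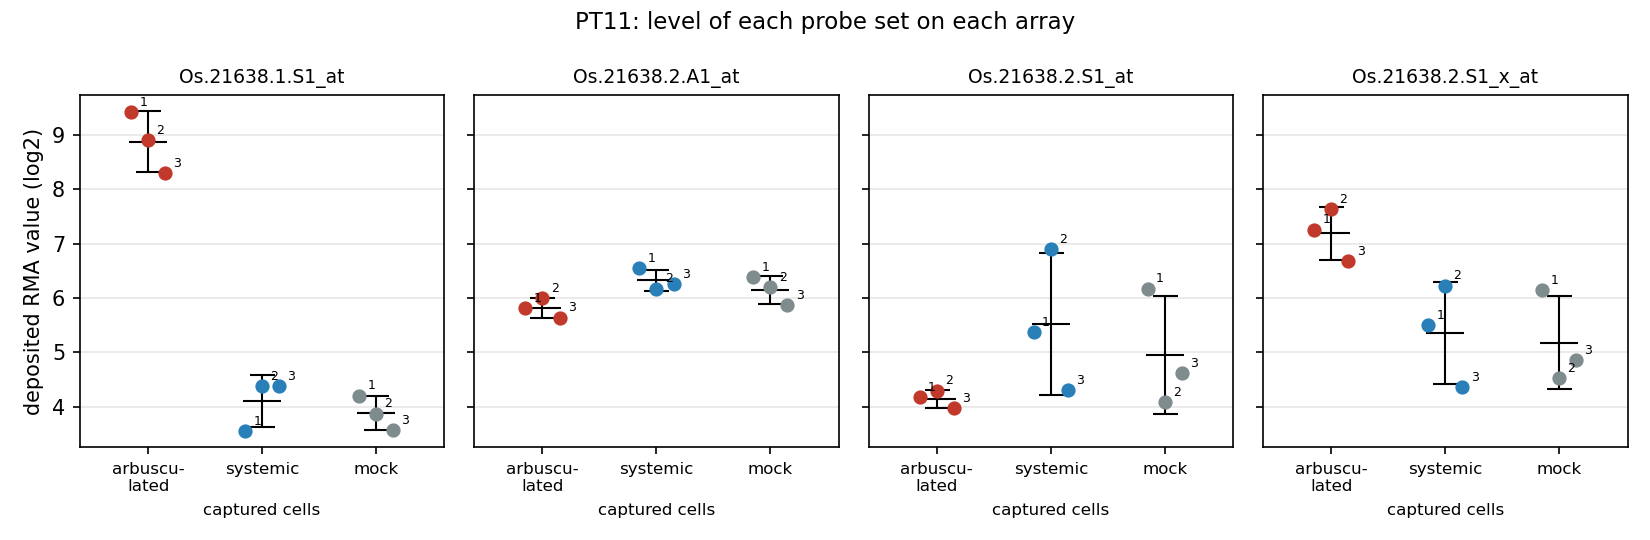
Deposited log2 value (y axis, RMA) of the 4 PT11 probe sets on each array of arbusculated, systemic and mock cells. Points are arrays with their replicate number, and black bars give the mean and SD of 3 arrays. Os.21638.1.S1_at lies between 8.30 and 9.43 on the arbusculated arrays and at most at 4.37 on the others, Os.21638.2.S1_x_at is higher on the arbusculated arrays by a smaller step, and the other panels show no rise.

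The probe set with the cross-matching suffix, Os.21638.2.S1_x_at, was also higher in arbusculated cells, by a smaller amount and without passing the test. Its log2 values were 7.26, 7.64 and 6.67 on the arbusculated arrays, 5.49, 6.23 and 4.36 on the systemic arrays, and 6.14, 4.52 and 4.86 on the mock arrays. The lowest arbusculated array was above the highest of the other arrays, and systemic and mock arrays spread over almost 2 log2 units and overlapped. Arbusculated minus mock was 2.01 ± 0.56 (log2, SE; 95% interval 0.73 to 3.30; unadjusted p = 0.00652, adjusted p = 0.27 in limma), and arbusculated minus systemic was 1.83 ± 0.56 (95% interval 0.55 to 3.11; unadjusted p = 0.0108, adjusted p = 0.14). The intervals lie above 0, but the values did not pass after adjustment over all probe sets. Systemic minus mock was 0.18 ± 0.56 (adjusted p = 0.983).

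The sense probe set from the same record, Os.21638.2.S1_at, gave no higher value in arbusculated cells. Its log2 values were 4.18, 4.29 and 3.97 on the arbusculated arrays, 5.37, 6.90 and 4.30 on the systemic arrays, and 6.17, 4.08 and 4.61 on the mock arrays. The arbusculated arrays lay close together at the low end, and systemic 1, systemic 2 and mock 1 stood far above them. Systemic 3, at 4.303, was only just above arbusculated 2, at 4.292, so the lack of overlap with systemic arrays rests on a small margin. Arbusculated minus mock was -0.81 ± 0.69 (log2, SE; 95% interval -2.40 to 0.78; adjusted p = 0.567 in limma), and arbusculated minus systemic was -1.38 ± 0.69 (95% interval -2.96 to 0.21; adjusted p = 0.253). Systemic minus mock was 0.57 ± 0.69 (adjusted p = 0.969). The spread within groups was large for this probe set, with a residual SD of 0.98 that exceeded the residual SD of 90.5% of all rice probe sets.

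The antisense probe set, Os.21638.2.A1_at, was nearly flat. Its log2 values were 5.81, 6.0 and 5.64 on the arbusculated arrays, 6.55, 6.17 and 6.26 on the systemic arrays, and 6.38, 6.20 and 5.87 on the mock arrays. All 9 values lay between 5.64 and 6.55, the residual SD of 0.22 was above that of only 15.3% of all rice probe sets, and the arbusculated arrays were below the systemic arrays but overlapped the mock arrays. Arbusculated minus mock was -0.33 ± 0.22 (log2, SE; 95% interval -0.83 to 0.17; adjusted p = 0.469 in limma), arbusculated minus systemic was -0.51 ± 0.22 (95% interval -1.01 to -0.01; adjusted p = 0.205), and systemic minus mock was 0.18 ± 0.22 (adjusted p = 0.969). The median change of all probe sets in these contrasts was -0.12, -0.17 and 0.07. Centring each array on its median gave -0.29, -0.44 and 0.15 for this probe set in the same contrasts. Further normalisation gave -0.30, -0.47 and 0.17 (quantile) and -0.23, -0.34 and 0.11 (cyclic loess). Beyond this, the part of the median change in these small differences was not tested.

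Over mock cells, 2 of 4 PT11 probe sets were higher in arbusculated cells with no overlap between the arrays, as were 6.64% of all probe sets, and 0 of 4 were lower, beside 14%. Over systemic cells 2 of 4 were higher with no overlap, beside 9.39% of all probe sets, and 2 of 4 were lower with no overlap, beside 22.7% of all probe sets. In systemic over mock cells 0 of 4 were higher and 0 of 4 lower with no overlap, beside 6.77% and 3.4% of all probe sets.

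**Figure D2:**
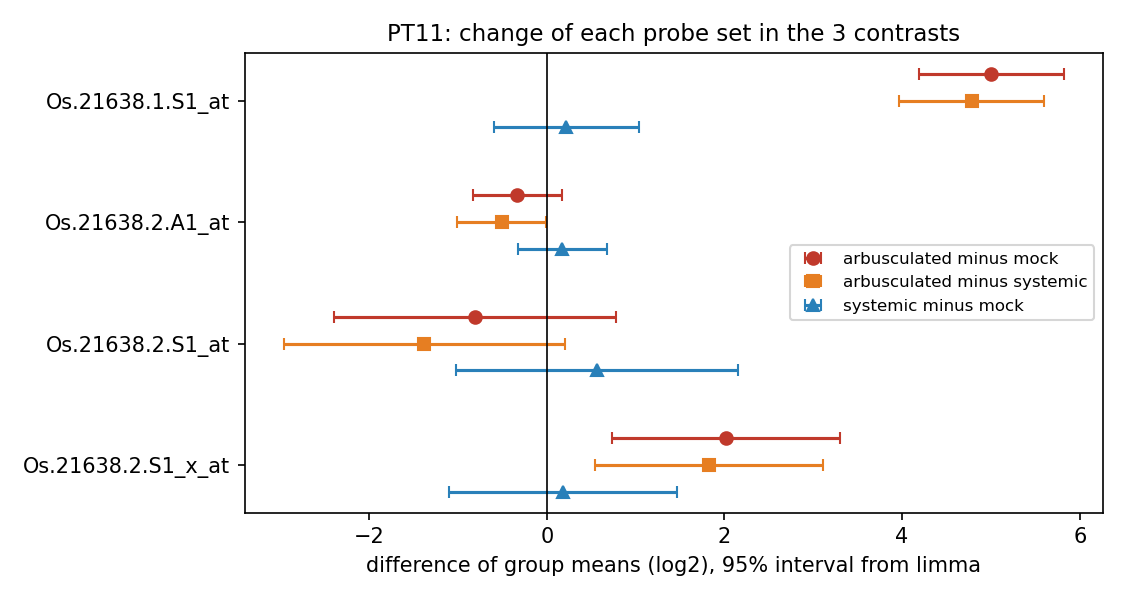
Difference of group means (x axis, log2) of the 4 PT11 probe sets (y axis) for arbusculated minus mock, arbusculated minus systemic and systemic minus mock cells. Bars are 95% intervals from limma, and the line marks no difference. The intervals of Os.21638.1.S1_at for both arbusculated contrasts lie between 3.97 and 5.82, and those of Os.21638.2.S1_x_at between 0.55 and 3.30.

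Whether the change itself differed between probe sets of the gene was tested on the difference between them within each array. Os.21638.1.S1_at minus Os.21638.2.A1_at was 2.66 to 3.62 on the arbusculated arrays and -3.0 to -1.80 on the 6 other arrays, a shift of 5.31 (log2). Os.21638.1.S1_at minus Os.21638.2.S1_at was 4.33 to 5.25 on the arbusculated arrays and -2.53 to 0.07 on the others, a shift of 5.99. Os.21638.1.S1_at minus Os.21638.2.S1_x_at was 1.27 to 2.17 on the arbusculated arrays and -1.95 to 0.01 on the others, a shift of 2.97. In each of these pairs the arbusculated arrays did not overlap the others.

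For the sense sets of the shared record, the arbusculated arrays also did not overlap the others in this difference. Os.21638.2.S1_at minus Os.21638.2.S1_x_at was -3.34 to -2.71 on the arbusculated arrays and -0.44 to 0.67 on the other 6 arrays, a shift of -3.02. Levels of different probe sets are not on a common scale, so only the shifts between groups are compared. Os.21638.2.A1_at minus Os.21638.2.S1_x_at shifted by -2.34, with -1.63 to -1.03 on the arbusculated and -0.06 to 1.90 on the other arrays. In the remaining pair, Os.21638.2.A1_at minus Os.21638.2.S1_at, the shift was 0.67 and the arrays overlapped.

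In an exact two-sided permutation test of the 3 arbusculated against the 6 other arrays, p was 0.0238 for 5 of the 6 pairs, the smallest value that this design allows, and 0.333 for the pair whose arrays overlapped. Adjusted over the 18 tests of this kind, those p were 0.0857 and 0.375, and comparisons of 3 against 3 arrays cannot go below 0.1. After this adjustment the tests of 3 against 6 arrays could not go below 0.05 either. The exact tests therefore could not decide whether the pairs differ. With limma fitted to the 5962 pairs of probe sets of 1 gene, an alternative chosen after seeing the data, 3 of the 6 PT11 pairs passed in arbusculated against mock cells, as did 0.0839% of all such pairs, or 5 in number. Their shifts were 5.33 ± 0.44 (log2, SE; adjusted p = 0.00406) for Os.21638.1.S1_at minus Os.21638.2.A1_at, 5.81 ± 0.71 (adjusted p = 0.0334) for Os.21638.1.S1_at minus Os.21638.2.S1_at, and -2.82 ± 0.38 (adjusted p = 0.0461) for Os.21638.2.S1_at minus Os.21638.2.S1_x_at. Pairs that share a probe set are not independent of each other. The first of these calls held whichever array was left out (adjusted p no higher than 0.0413). The second held only without systemic 2 or systemic 3 (up to 0.222 otherwise), and the third was lost with any array left out (0.0651 to 0.298). Os.21638.1.S1_at minus Os.21638.2.S1_x_at shifted by 2.99 ± 0.60 and did not pass (adjusted p = 0.267). Against systemic cells the same 3 pairs passed, with adjusted p of 0.00435, 0.0206 and 0.0206, where 0.101% of all pairs did. There the first held whichever array was left out (up to 0.0404). The second was lost without systemic 1, systemic 2 or any arbusculated array, and the third without any arbusculated or systemic array (both up to 0.105).

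**Figure D3:**
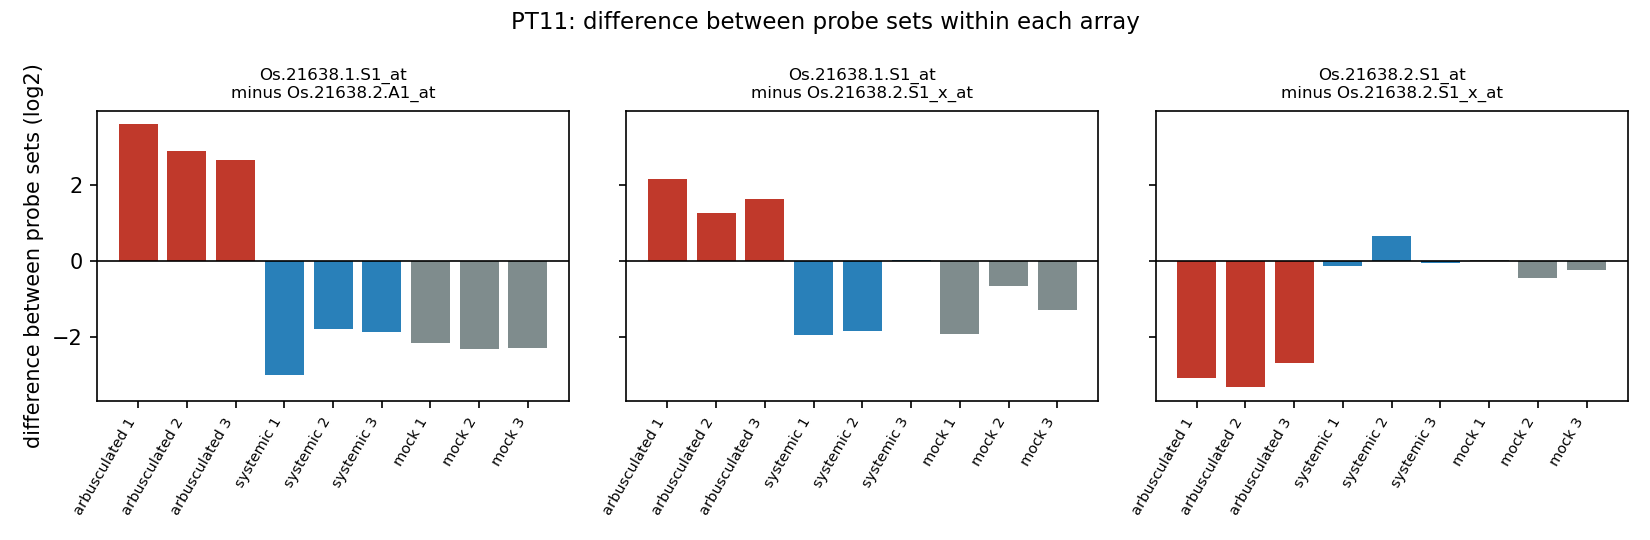
Difference between PT11 probe sets within each array (y axis, log2) for 3 of the 6 pairs, with 1 bar per array of arbusculated, systemic and mock cells. The left and middle panels are higher on the arbusculated arrays than on the others, and in the right panel the difference is -3.34 to -2.71 on the arbusculated arrays and -0.44 to 0.67 elsewhere.

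Calls for several probe sets of 1 gene were also counted over all genes. Of the 3444 genes with more than 1 probe set of their own, 15 had a probe set that rose in arbusculated over mock cells, and in 15 of these only 1 of the gene's probe sets passed the test. Over systemic cells 29 genes had such a rise, in 28 of them only 1 probe set passed, and in 1 all did. A probe set that missed the threshold may still differ, as the interval of Os.21638.2.S1_x_at shows. PT11 is counted among them in both contrasts. Averaging all 4 PT11 probe sets gave 1.47 in arbusculated over mock cells (adjusted p = 0.235 in limma) and 1.18 over systemic cells (adjusted p = 0.137), and neither passed.

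The level of the responding probe set varied among the 3 arbusculated samples. Os.21638.1.S1_at ranged over 1.13 log2 units among them, highest on arbusculated 1 and lowest on arbusculated 3. Its residual SD over the 3 groups was 0.47, above that of 56.9% of all rice probe sets. Os.21638.2.S1_x_at ranged over 0.96 among the arbusculated samples, highest on arbusculated 2 and lowest on arbusculated 3. RNA quality was read from 7 pairs of control probe sets at the 3' and 5' ends of rice transcripts. The mean 3' minus 5' difference was 1.25 on arbusculated 1, 0.73 on arbusculated 2 and 0.36 on arbusculated 3, against -0.07 to 0.56 on the systemic arrays and 0.20 to 0.42 on the mock arrays. Its part in the PT11 values was not tested. The rise of Os.21638.1.S1_at over mock cells was 4.73 to 5.29 when each array was left out in turn (adjusted p of 0.00572 to 0.026 in limma), and that over systemic cells 4.51 to 5.07 (0.00709 to 0.0327). The array of mock 2 resembled the arbusculated arrays more than the other mock arrays (mean correlation across probe sets, which are not independent, of 0.878 and 0.853), and its value of Os.21638.1.S1_at was 3.87. The part of this resemblance in the PT11 values was not tested.

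Among 20461 probe sets paired with exactly 1 other gene and without the _x suffix, the 8 whose centred profile over the 9 arrays lay nearest to that of Os.21638.1.S1_at were LOC4339232, LOC4338594, LOC9268279, LOC4327715, LOC4333555, LOC4347234, LOC4346359 and LOC4333846. The root mean square difference per array was 0.60 for LOC4339232, the nearest, and 0.75 for LOC4333846. The reference tables give none of these genes an informative name. They were picked for this likeness, so their values are a description. LOC4339232 had 8.83, 9.28 and 7.89 on the arbusculated arrays, 4.11, 5.76 and 4.96 on the systemic arrays, and 4.03, 4.69 and 4.27 on the mock arrays. LOC4338594 had 7.67, 8.07 and 7.52 on the arbusculated arrays, 3.33, 4.20 and 4.27 on the systemic arrays, and 3.57, 3.16 and 4.24 on the mock arrays. All 8 were high in arbusculated cells and low in systemic and mock cells, with differences of 3.78 to 4.81 over mock and 3.46 to 4.91 over systemic cells. All 8 were highest on arbusculated 2, as was Os.21638.2.S1_x_at of PT11, whereas Os.21638.1.S1_at was highest on arbusculated 1. The same difference from Os.21638.1.S1_at was 1.54 for Os.21638.2.S1_x_at, 2.54 for Os.21638.2.A1_at and 2.93 for Os.21638.2.S1_at.

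**Figure D4:**
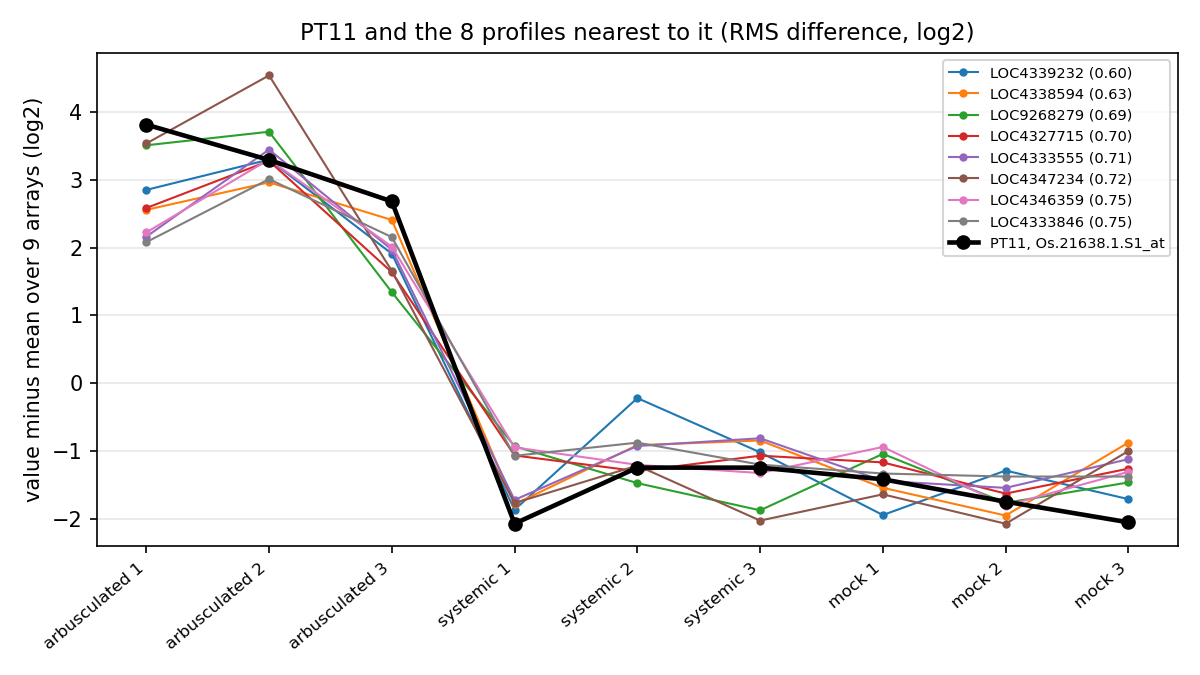
Value minus its mean over 9 arrays (y axis, log2) of PT11 probe set Os.21638.1.S1_at (black) and of the 8 genes with the nearest profiles, by array (x axis). Lines only join the values of 1 probe set, and numbers in the legend are root mean square differences from PT11, from 0.60 to 0.75. All profiles are high on the arbusculated arrays and low on the systemic and mock arrays.

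The other members of the PHT1 family were measured in the same fit. The list held 13 family members, of which PT1, PT2, PT3, PT4, PT6, PT7, PT8 and PT12 had 14 probe sets, while PT5, PT9, PT10 and PT13 were not analysed here. PT13 is the other family member known to be induced in mycorrhizal rice roots. In limma 0 of the 14 passed in arbusculated against mock or systemic cells, where 0.187% and 0.246% of all probe sets did, so a count of 0 in a list of this size says little. The median difference was -0.24 over mock, beside -0.12 for all probe sets, with a range of -1.39 to 2.19. The upper end was a probe set of PT8, a phosphate importer of root and shoot, at 2.19 ± 1.33 (log2, SE; adjusted p = 0.439). Its interval of -0.84 to 5.22 overlaps that of Os.21638.1.S1_at. This PT8 probe set had 9.85 to 10.30 on the arbusculated, 5.17 to 11.10 on the systemic and 7.20 to 8.69 on the mock arrays. The interval draws on the spread within all 3 groups. The other PT8 probe sets differed over mock by 1.90 ± 1.16 (adjusted p = 0.443) and -0.12 ± 0.41 (adjusted p = 0.899). Over systemic cells the lowest adjusted p of the family was that of PT4, another root phosphate importer, at 1.67 ± 0.44 (adjusted p = 0.126).

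**Figure D5:**
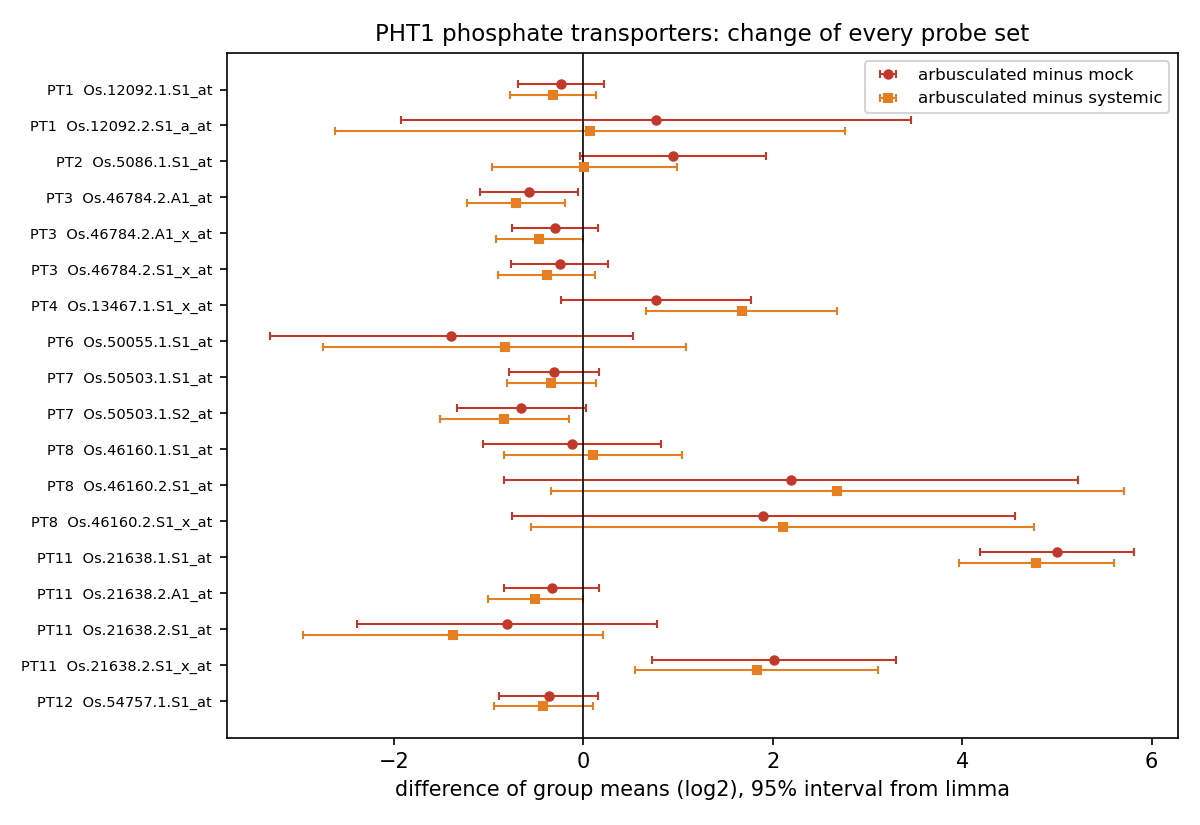
Difference of group means (x axis, log2) of every probe set of the 9 measured PHT1 genes (y axis) for arbusculated minus mock and arbusculated minus systemic cells, with 95% intervals from limma. Only Os.21638.1.S1_at of PT11 passed the test, at 5.00 over mock and 4.78 over systemic cells. Wide intervals such as that of a PT8 probe set, -0.84 to 5.22 over mock, reach into its range.

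AMT3;1 (LOC4324937), an ammonium transporter gene that is also induced in mycorrhizal rice roots, was the other measured gene of the arbuscule marker list. Of its 2 probe sets, 1 had 8.02, 8.53 and 7.34 (log2) on the arbusculated arrays, 7.35, 6.76 and 7.23 on the systemic arrays, and 7.11, 6.77 and 6.99 on the mock arrays. The arbusculated arrays were above the mock arrays, and the lowest of them fell within the systemic range. The difference over mock was 1.01 ± 0.32 (adjusted p = 0.298 in limma), and the other AMT3;1 probe set differed by -0.15 ± 0.26 (adjusted p = 0.788). Of the 7 names on that list, STR1, STR2, RAM1, AM1 and AM3 had no match in the reference tables and were not analysed here.

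Genes that sense and distribute phosphate were measured by 15 probe sets of 10 genes, among them PHR2, a master regulator of the phosphate starvation response, and the SPX proteins that restrain it. In limma 0 of 15 rose and 0 fell in arbusculated against mock cells, beside 0.178% and 0.00873% of all probe sets. The median difference was 0.54, and 12 of 15 were above 0, beside a median of -0.12 for all probe sets. The share of all probe sets above 0 was not analysed here. Other lists went both ways over mock cells. Symbiosis signalling genes had 6 of 7 probe sets above 0 (median 0.47), and the PHT1 genes other than PT11 had 5 of 14 (median -0.24). Over systemic cells 0 of 15 passed, beside 0.246% of all probe sets, with a median of 0.76. Of 7 probe sets of 5 symbiosis signalling genes, 0 passed over mock cells, beside 0.187% of all probe sets, and 1 rose over systemic cells, beside 0.232%. This was a probe set of CCAMK, the calcium and calmodulin dependent kinase of symbiosis signalling, at 1.62 ± 0.24 (adjusted p = 0.046). It averaged 6.97 in arbusculated cells, 5.35 in systemic cells and 6.74 in mock cells (log2). The other CCAMK probe set differed over systemic cells by 0.56 ± 0.39 (adjusted p = 0.386). Whether the CCAMK call, close to the threshold, held in the alternative fits was not analysed here. The genes beside PT11 on the chromosome, in the gene order of assembly ASM3414082v1, were LOC112939901, which had no probe set, and LOC4324188, whose probe sets differed by -0.31 ± 0.24 and -0.51 ± 0.25 in arbusculated against mock cells (adjusted p of 0.52 and 0.375).

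Markers of other root cell types were measured as well. Over the 7 probe sets of 5 endodermis markers the mean level was 5.86 to 6.98 on the arbusculated, 6.21 to 6.28 on the systemic and 6.08 to 6.60 on the mock arrays. Over mock, 4 of the 7 were above 0, with a median difference of 0.46 and a range of -0.46 to 0.77, and 0 of 7 passed the test in limma, beside 0.187% of all probe sets. Means in arbusculated cells ran from 2.94 for a probe set of CASP1, a protein of the Casparian strip, to 11.09 for LSI1. LSI1 is a silicon importer of the exodermis and endodermis. The same probe sets averaged 3.76 and 9.93 in systemic cells and 3.40 and 10.37 in mock cells. The other CASP1 probe sets averaged 3.18 and 6.30 in arbusculated cells. Over the 4 probe sets of secondary wall cellulose synthases, markers of xylem and sclerenchyma, the mean level was 6.08 to 6.41 on the arbusculated, 6.18 to 6.78 on the systemic and 6.79 to 7.61 on the mock arrays. All 4 were lower over mock, with a median difference of -0.82, beside -0.12 for all probe sets. In limma 0 of 4 passed the test there, beside 0.187% of all probe sets. Over systemic cells 1 of the 4 was above 0, with a median of -0.28, beside -0.17 for all probe sets. The part of these levels in the PT11 values was not tested.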

How the data were processed

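Log2 values per probe set, as the authors deposited them, were used unchanged. RMA made them, per the submitters' processing notes, with a version and probe definition that the labels do not state. The table held 57381 probe sets, and its 123 array controls stayed out. Probe sets were paired with genes by the platform annotation, 22436 with exactly 1 gene, and names came from a RefSeq table. Comparisons used limma 3.58.1 (R 4.3.3) on 1 model of the 9 arrays, with moderated variances, two-sided tests and Benjamini-Hochberg adjustment over the 57258 probe sets within a contrast, at 0.05. Differences between PT11 probe sets within arrays were tested by exact permutation with scipy 1.17.1. Likeness of profiles was the root mean square difference of centred values. The fit was tested on simulated data. Precision is limited by the 3 arrays per group. PT11 and the gene lists were chosen with earlier results of these data known. Named are all PT11 probe sets, the 8 nearest profiles, members of the PHT1 and arbuscule marker lists, and members of other lists that passed. LSI1, CASP1 and LOC4324188 were named after their values were seen. Alternatives were other moderation, filters, normalisations, weights, a replicate block, fewer arrays and the gene mean.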

Additional observations from a re-analysis of the deposited data

How the results depend on the processing

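Apart from averaging the gene's probe sets, all 276 alternative values of the 16 PT11 results stayed on their side of the threshold, and 3 had the other sign, all of them in systemic minus mock, without systemic 2 or mock 2. With the replicate block Os.21638.1.S1_at rose by 5.00 over mock (adjusted p = 0.0373 in limma) and by 4.78 over systemic cells (adjusted p = 0.0458). Replicate numbers did not serve as pairs in the main fit, since the labels give no pairing. Deviations of same-numbered arrays correlated by -0.285 to 0.0388, and 2 of 9 arrays correlated best with their own number. Over all alternatives but the gene mean, the adjusted p of Os.21638.1.S1_at in limma was at most 0.0373 over mock and 0.0458 over systemic cells. The mean of all probe sets gave 1.47 over mock and 1.18 over systemic cells, which ended the calls of Os.21638.1.S1_at and turned the sign of Os.21638.2.A1_at and Os.21638.2.S1_at, and an adjusted p of 0.23 for any difference among groups.

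With any 1 array left out, systemic minus mock ran from -0.12 to 1.18 for Os.21638.2.S1_at and from -0.25 to 0.69 for Os.21638.2.S1_x_at. The shift of Os.21638.2.A1_at minus Os.21638.2.S1_at over mock ran from -0.018 to 0.94. Exact tests of 3 against 3 arrays could not pass, and those of 3 against 6 could not pass after adjustment. Limma over pairs, chosen after seeing the data, gave calls for shifts of 5.33, 5.81 and -2.82 over mock and of 5.29, 6.16 and -3.21 over systemic cells. Brightness and suffix filters removed Os.21638.2.S1_at and Os.21638.2.S1_x_at from a fit each, which then gave no value for them.

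The count of all probe sets past the threshold varied with the processing. Over mock cells it was 107, against 32 with the replicate block, 44 with 6 arrays, 67 among brighter probe sets and 20 to 169 with 1 array left out. Over systemic cells it was 141, against 14 with the block, 11 with 6 arrays, 92 with trend and robust moderation, 25 to 126 with 1 array left out and 211 with array weights. Between systemic and mock cells it was 0, and 0 to 3 with 1 array left out. What the deposited values say of signal over background was not analysed here.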
